A study of Mus musculus with 6 samples.

Results

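The fatty acid desaturases and elongases described here are 8 genes, Scd1, Scd2, Fads1, Fads2, Elovl1, Elovl2, Elovl5 and Elovl6, chosen by name out of the 54600 genes of an expression table. They were measured by RNA-seq in mouse liver, in 3 libraries labelled wild type (WT) and 3 labelled as knockouts of HIF-2α in hepatocytes only (KO). HIF-2α, the product of Epas1, is a transcription factor subunit that is stabilised when oxygen is low, and the series set out to examine its role in metabolic fatty liver disease. All mice of both labels had been fed a high-fat diet for 16 weeks, so no library shows the level on a control diet. For the mice, the sources used here give no Cre driver, strain, sex or age. The labels do not say that each library came from a separate animal, so p-values measure only the spread between these libraries.

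Desaturases place double bonds into fatty acyl chains, and elongases carry out the first, rate-limiting condensation of each round of chain lengthening in the endoplasmic reticulum. Scd1 and Scd2 make monounsaturated chains such as oleate from saturated ones, and Elovl6 lengthens palmitate to stearate just before that step. Fads2 and Fads1 act in turn on dietary linoleate and alpha-linolenate, with Elovl5 and Elovl2 lengthening the products towards arachidonate and docosahexaenoate, while Elovl1 lengthens very long saturated and monounsaturated chains. In liver, genes of this group are classical targets of SREBP-1c, LXR and insulin signalling, and those for polyunsaturated fatty acids also respond to PPARα.

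Values are given as TPM, transcript abundance corrected for gene length and set to the same total in each library, so that levels of different genes can be compared but sequencing depth is unknown. Each library had 11013 to 11708 genes at 1 TPM or more, and the 11440 genes that reached this level in 3 or more libraries were tested, among them all 8 desaturase and elongase genes. The targeted gene did not check the labels: Epas1 was at 23.8, 26.0 and 21.0 TPM in the WT-labelled libraries and at 26.6, 35.1 and 29.4 TPM in the KO-labelled ones. All 3 libraries labelled KO thus lay above all 3 labelled WT, and the reason was not tested. Each value sums every exon and every liver cell type. Every direction below is therefore between libraries labelled KO and libraries labelled WT. Hepatocyte markers were abundant in every library, with 10 of 10 tested and Alb between 28784 and 48972 TPM. The adipocyte genes Adipoq, Lep, Retn and Adig were listed at 0 in all 6 libraries, and Plin1 did not exceed 0.02 TPM. The rest of that marker list was present, with Fabp4 at 10.1 to 18.5 TPM, Lipe at 2.71 to 6.15 TPM and Cidec at 0.528 to 7.60 TPM. In whole tissue, fewer cells of a type and less RNA per cell cannot be told apart.

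The genes lie in 6 places of the mm10 genome. On chromosome 19, Scd2 (44293674 to 44306864, plus strand) and Scd1 (44394455 to 44407879, minus strand) lie 87590 bases apart, and Fads2 (10062765 to 10101746, minus strand) and Fads1 (10182888 to 10196877, plus strand) lie 81141 bases apart and are transcribed away from each other. Elovl1 lies on chromosome 4 (118428093 to 118432953, plus strand), Elovl2 on chromosome 13 (41182381 to 41220405, minus strand), Elovl5 on chromosome 9 (77917364 to 77984519, plus strand) and Elovl6 on chromosome 3 (129532355 to 129638495, plus strand). The sources used here do not say how reads that match several genes were counted, so sequence shared with other genes was measured on the longest coding transcript in GENCODE M21. Of all 50-base stretches of the Scd2 transcript, 4.01% also occur in other genes, mainly Scd1, and for Scd1 the share is 4.66%, mainly with Scd3. Elovl6 shares 4.4% with other loci, mainly the predicted gene Gm11295, and the other 5 genes share at most 0.227%. On the opposite strand Elovl1 overlaps 53 exon bases of Cdc20 (mean 0.427 TPM) and Elovl6 overlaps 34 exon bases of the antisense gene Gm35986 (mean 6.48 TPM). If the counting ignored strand, reads in those bases could not be assigned.

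Promoter windows of 300 bases, from 250 before to 50 after the start, were found in RefSeq (build GRCm38.p6, the same assembly as mm10) for 5 of the 8 genes, Fads2, Elovl1, Elovl2, Elovl5 and Elovl6. Those of 3 genes follow, which belong to genes whose levels shared their highest and lowest library, as described further on, and capitals mark every match to a searched motif on either strand.
Fads2 (chr19:10101454-10101753, minus strand): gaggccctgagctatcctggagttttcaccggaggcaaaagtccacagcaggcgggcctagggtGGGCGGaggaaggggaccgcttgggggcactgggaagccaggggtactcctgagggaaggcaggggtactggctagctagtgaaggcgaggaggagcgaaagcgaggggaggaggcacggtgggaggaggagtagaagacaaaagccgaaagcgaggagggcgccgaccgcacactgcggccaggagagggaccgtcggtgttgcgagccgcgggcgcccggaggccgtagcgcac
Elovl5 (chr9:77917115-77917414, plus strand): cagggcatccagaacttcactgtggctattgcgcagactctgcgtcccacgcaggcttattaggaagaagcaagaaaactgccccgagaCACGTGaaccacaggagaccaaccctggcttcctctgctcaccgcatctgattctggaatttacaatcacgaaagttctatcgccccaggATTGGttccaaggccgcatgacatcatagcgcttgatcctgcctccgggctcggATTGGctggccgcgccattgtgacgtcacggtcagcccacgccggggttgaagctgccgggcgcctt
Elovl6 (chr3:129532136-129532435, plus strand): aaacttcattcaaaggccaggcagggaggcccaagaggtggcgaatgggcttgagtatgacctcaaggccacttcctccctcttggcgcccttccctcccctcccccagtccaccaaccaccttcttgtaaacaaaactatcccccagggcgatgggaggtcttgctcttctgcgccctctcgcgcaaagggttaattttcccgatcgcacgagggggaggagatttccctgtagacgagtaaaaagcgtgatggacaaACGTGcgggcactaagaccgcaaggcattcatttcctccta
The motifs were the sterol response element TCACNCCAC, the CCAAT box (CCAAT), the E-box CACGTG, the GC box GGGCGG and the hypoxia response core ACGTG, which lies inside CACGTG. Elovl5 held 1 E-box, which also matches the hypoxia core, and 2 CCAAT boxes read on the opposite strand as ATTGG. Fads2 held 1 GC box, and Elovl6 held 1 hypoxia core, located after the start. None of the 3 windows held the sterol response element as spelled. Of all 32851 windows in the table, 1.24% held the sterol response element, 37.4% a CCAAT box, 7.15% an E-box, 35.7% a GC box and 19.6% the hypoxia core. These matches describe letters in the window and are not evidence of binding.

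Scd1 had the highest mean of the 8 and the widest range, although in KO replicate 3 Elovl2 was above it. It was at 525, 5413 and 1406 TPM in WT replicates 1, 2 and 3 and at 1332, 3296 and 181 TPM in KO replicates 1, 2 and 3. The highest and lowest libraries thus differed 29.9-fold, and the ranges of the labels overlapped almost throughout: the factor between the highest and lowest library was 10.3 among those labelled WT and 18.2 among those labelled KO. The means were 2448 ± 2606 TPM for WT and 1603 ± 1575 TPM for KO (SD, n = 3 each). Scd1 alone made up 73.6% of the summed TPM of the 8 genes in WT replicate 2 and 22.5% in KO replicate 3.

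Elovl6, which supplies stearate to Scd1, had the same extremes. Its levels were 18.1, 130.3 and 21.4 TPM in the WT-labelled libraries and 27.0, 52.9 and 7.31 TPM in the KO-labelled ones. WT replicate 2 was the highest and KO replicate 3 the lowest library, a 17.8-fold range, and the other 4 libraries lay between 18.1 and 52.9 TPM. Its mean was 56.6 ± 63.8 TPM for WT and 29.1 ± 22.9 TPM for KO (SD, n = 3 each).

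The front-end desaturases of polyunsaturated fatty acids followed each other closely. Fads2, the delta-6 desaturase, was at 241, 697 and 315 TPM in the WT-labelled libraries and at 327, 603 and 164 TPM in the KO-labelled ones. Fads1, the delta-5 desaturase, was at 136, 349 and 162 TPM and at 161, 320.4 and 109 TPM. Replicate 2 was the highest library within each label for both genes, and KO replicate 3 was the lowest of all. Over the 6 libraries Fads2 spanned 4.24-fold and Fads1 3.20-fold, whereas the ratio of Fads1 to Fads2 spanned 1.35-fold.

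Among the elongases of polyunsaturated chains, Elovl5 varied more than Elovl2. Elovl5, which lengthens chains of intermediate length, was at 178, 418 and 171 TPM in the WT-labelled libraries and at 265, 257 and 98.1 TPM in the KO-labelled ones, a 4.26-fold range. Elovl2, which acts later towards docosahexaenoate, was at 204, 321 and 256 TPM and at 248, 342 and 218 TPM, a 1.68-fold range. Both genes overlapped between the labels, and for Elovl2 the lowest library was WT replicate 1 and the highest KO replicate 2.

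The 2 genes without overlap between the labels were Elovl1 and Scd2. Elovl1, the elongase of very long saturated chains, was at 22.0, 22.1 and 18.6 TPM in the WT-labelled libraries and at 27.4, 28.7 and 24.3 TPM in the KO-labelled ones, with means of 20.9 ± 2.0 and 26.8 ± 2.30 TPM (SD, n = 3 each). Scd2, a paralog of Scd1 that is the main form in brain, was at 1.06, 1.34 and 0.844 TPM and at 1.51, 2.02 and 1.42 TPM, with means of 1.08 ± 0.247 and 1.65 ± 0.323 TPM. All 3 libraries labelled KO lay above all 3 labelled WT for both genes, although for Scd2 the nearest values of the labels differed by less than 0.1 TPM. Of all tested genes, 8.23% had their libraries separated in this direction and 0.857% in the other, before any scaling between libraries.

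**Figure D1:**
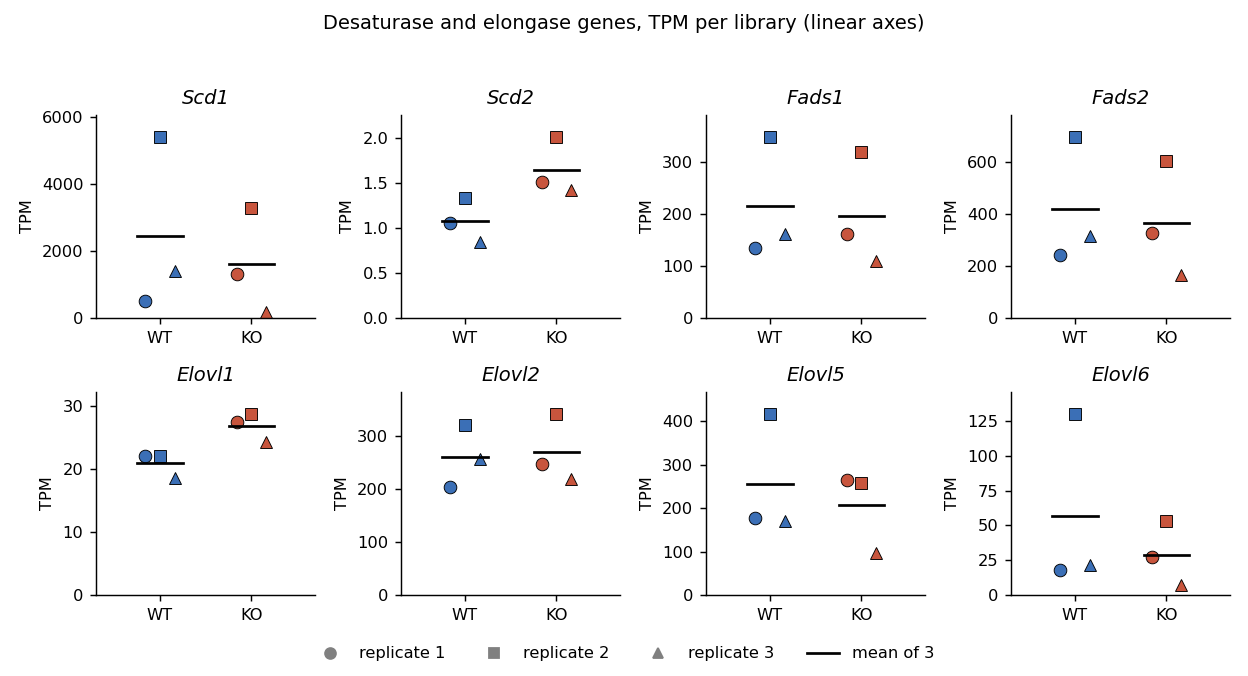
TPM (linear axes from 0) of each gene in the 3 libraries labelled WT (blue) and the 3 labelled KO (red), with replicate 1 as a circle, 2 as a square and 3 as a triangle, and the mean as a bar. Scd1 and Elovl6 spread 29.9-fold and 17.8-fold over the libraries with the labels overlapping, while Elovl1 and Scd2 are separated between the labels.

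By mean level over the 6 libraries, the order was Scd1 (2026 TPM), Fads2 (391), Elovl2 (265), Elovl5 (231), Fads1 (206), Elovl6 (42.8), Elovl1 (23.9) and Scd2 (1.36). The ranges of Scd1 and Fads2 overlapped, as did those of Fads2, Elovl2, Elovl5 and Fads1 with one another, so neighbours in that part of the order were not separated by their spread. Within each of the 6 libraries, however, Scd1 lay above Fads2, and Fads2 above both Elovl5 and Fads1. Elovl6 and Elovl1 also overlapped. Fads1 lay above Elovl6 in each library, and Scd2 lay below the lowest value of every other gene.

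None of the 8 genes passed the threshold between the labels (limma, Benjamini-Hochberg adjusted p below 0.05 over all 11440 genes, smallest adjusted p of a member 0.993), and 1 had an unadjusted p below 0.05. Of all tested genes 0.00874% passed after adjustment, a single gene, the pseudogene Gm13597, named because it is the only one. Before adjustment 3.15% had a p below 0.05. On the scale of log2(TPM + 1), where changes of weakly expressed genes appear smaller than they are, 5 of the 8 differences were below 0 and the median was -0.19, beside a median of +0.09 over all tested genes, of which 25.5% were below 0. Median-ratio scaling, which divides each library by its median ratio to the others, shifted the median of all genes by -0.11, to -0.01, and put 6 of the 8 differences below 0.

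The unadjusted p below 0.05 was that of Elovl1. Its difference was +0.35 with a standard error of 0.13 and a 95% interval from 0.04 to 0.65 (limma, unadjusted p = 0.031, adjusted p = 0.993). With the replicate number as a block, which treats same-numbered libraries as pairs, the unadjusted p was 0.0082 and the adjusted p 0.724. Median-ratio scaling reduced the Elovl1 difference to +0.23, and that of Scd2 from +0.35 (SE 0.17, limma unadjusted p = 0.080) to +0.28. After that scaling both genes were still separated between the labels, against 3.05% of all tested genes separated in the same direction. Exact permutation, two-sided, gave p = 0.10 for each, the smallest that 3 libraries against 3 allow. The targeted gene Epas1 had a difference of +0.34 (limma unadjusted p = 0.050, adjusted p = 0.993). It was separated in the same direction before scaling, beside 8.23% of all tested genes, and its labels overlapped after median-ratio scaling.

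For the other 6 genes the limma intervals were wide. The Scd1 difference was -0.77 with a 95% interval from -3.50 to 1.95, and that of Elovl6 was -0.72, from -2.79 to 1.34. Fads2 was at -0.24, from -1.48 to 1.01, and Fads1 at -0.15, from -1.23 to 0.94. Intervals of this width include a doubling in either direction for Scd1, Elovl6 and Fads2, so these data do not show whether the levels differ with the label. Elovl5 was at -0.31, from -1.42 to 0.81, and Elovl2 at +0.05, from -0.48 to 0.58, which turned to -0.075 after median-ratio scaling. Exact permutation of the TPM values gave p between 0.60 and 0.80 for these 6 genes.

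**Figure D2:**
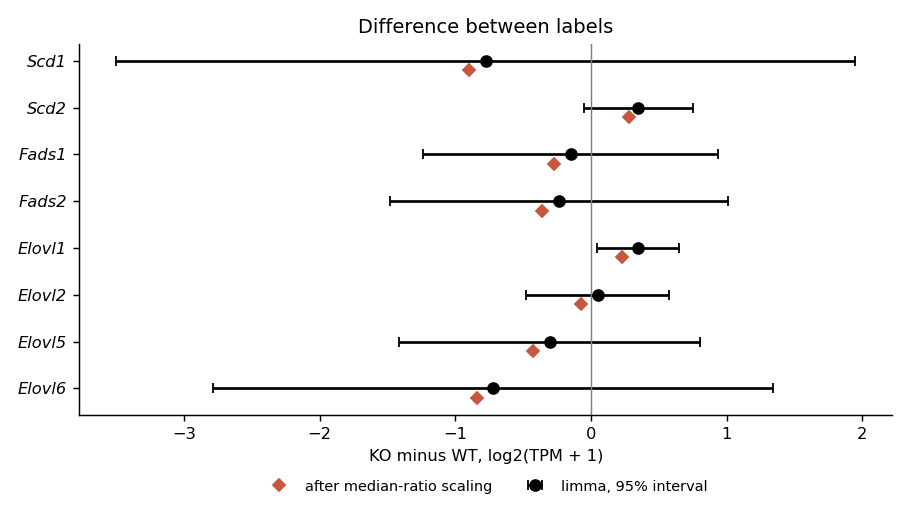
KO minus WT on the log2(TPM + 1) scale for each gene, as the limma estimate with its 95% interval (black) and as the estimate after median-ratio scaling (red diamonds). The interval of Elovl1 lies above 0, and those of the other 7 genes include it.

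The sign of all 5 negative differences depended on which libraries were included. Without WT replicate 2 the difference of Scd1 was +0.11, and without KO replicate 3 it was +0.40. For Elovl6 the corresponding values were +0.17 and +0.02, for Fads2 +0.21 and +0.24, for Fads1 +0.26 and +0.20, and for Elovl5 +0.11 and +0.16. All 5 genes therefore turned from lower to higher in the libraries labelled KO when either library was left out. Without both libraries numbered 2, however, all 5 stayed below 0. They were then at -0.80 for Scd1, -0.44 for Elovl6, -0.25 for Fads2, -0.16 for Fads1 and -0.11 for Elovl5. All 5 were also below 0 without both libraries numbered 1. The difference of Elovl1 lay between +0.27 and +0.41, and that of Scd2 between +0.25 and +0.44, whichever library was left out.

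Between same-numbered libraries the picture also depended on the number. In pair 1, all 8 genes were higher in the library labelled KO, beside 57.1% of all tested genes, and Scd1 differed by +1.34 on the log2(TPM + 1) scale. In pair 2, Elovl1, Elovl2 and Scd2 were higher and the other 5 lower, beside 69.3% of all tested genes higher. In pair 3, Elovl1 and Scd2 were higher and the other 6 lower, with Scd1 at -2.95, beside 68% of all tested genes higher. For Elovl1 the 3 pairs gave +0.30, +0.37 and +0.37, and for Scd2 +0.29, +0.37 and +0.39.

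**Figure D3:**
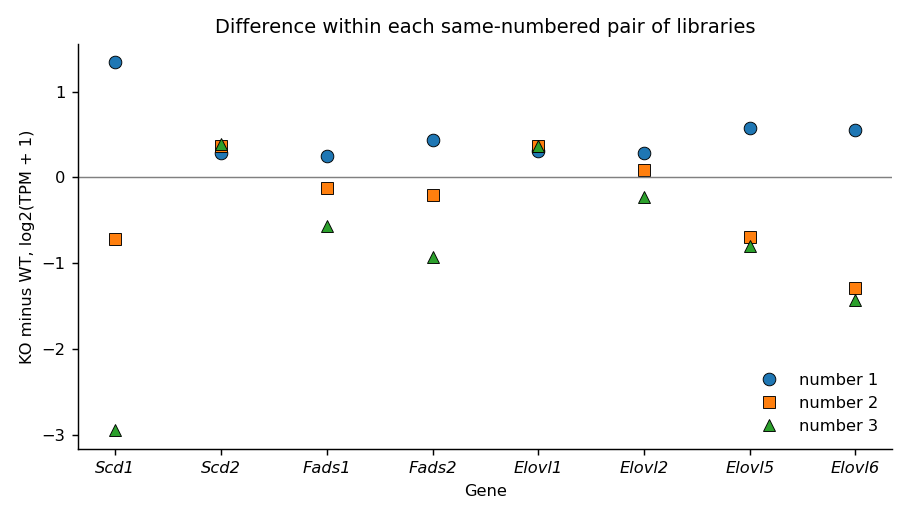
KO minus WT on the log2(TPM + 1) scale within each pair of libraries that carry the same replicate number. Scd1 runs from -2.95 to +1.34 over the 3 pairs, while Elovl1 and Scd2 are above 0 in all 3.

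The spread within a label was large for the lipogenic members. The within-label standard deviation of log2(TPM + 1) had a median of 0.21 over all tested genes. It was 1.93 for Scd1, 1.46 for Elovl6, 0.87 for Fads2, 0.77 for Elovl5 and 0.75 for Fads1, and these 5 genes stood above 99.9%, 99.6%, 97.97%, 97.2% and 97.0% of tested genes. Among genes within a factor of 2 of the same mean TPM, Scd1 stood above 96.6% of 58 genes and Elovl6 above 99.6% of 1911. The remaining members were less variable, with 0.33 for Elovl2, 0.17 for Scd2 and 0.13 for Elovl1, above 78.9%, 35.7% and 19.0% of tested genes.

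**Figure D4:**
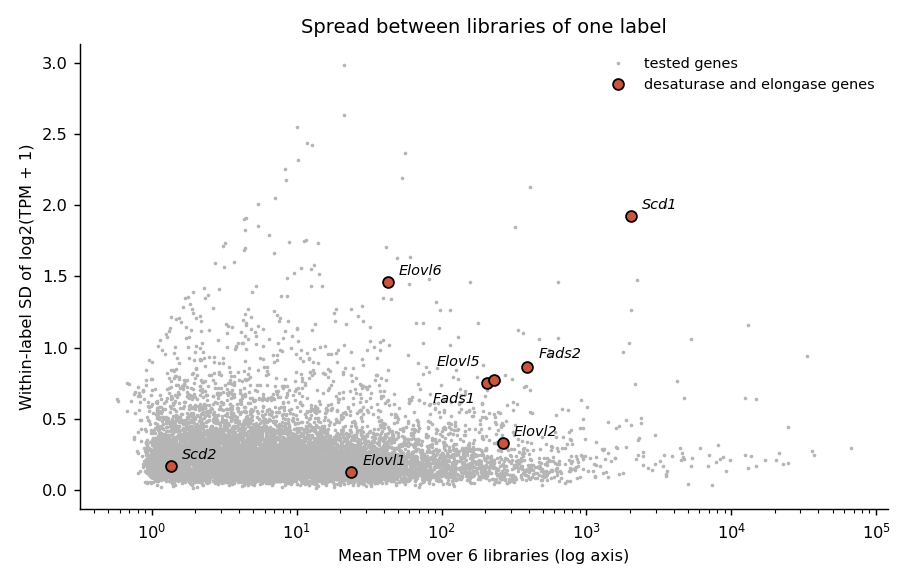
Within-label standard deviation of log2(TPM + 1), pooled over both labels, against mean TPM (log axis) for all 11440 tested genes (grey) and the 8 genes (red). Scd1 at 1.93 and Elovl6 at 1.46 lie far above the bulk, and Elovl1 at 0.13 lies within it.

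Scd1, Elovl6, Fads1, Fads2 and Elovl5 shared their extremes, with the highest level in WT replicate 2 and the lowest in KO replicate 3. Of all tested genes, 4.02% had this pair of extremes. In 7 of the 8 genes, all but Elovl5, replicate 2 was the highest library within both labels, which held for 19.1% of tested genes. Scd1 and Fads1 ordered the 6 libraries identically, and so did Fads2 and Elovl6. The share of TPM from mitochondrially encoded genes was also highest in WT replicate 2 (24.5%) and lowest in KO replicate 3 (16.2%), with the other 4 libraries between 18.8% and 21.9%, and its part in this pattern was not tested.

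**Figure D5:**
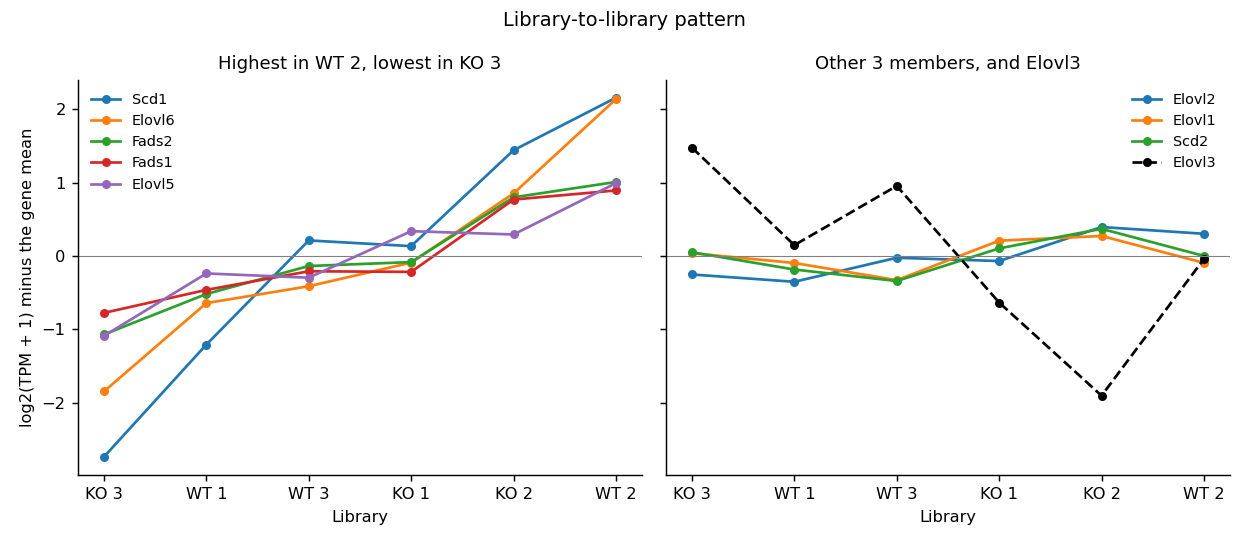
log2(TPM + 1) of each gene minus its mean, by library, for the 5 genes with shared extremes (left) and for Elovl2, Elovl1 and Scd2 with the elongase Elovl3 (dashed) (right). The genes on the left run from lowest in KO 3 to highest in WT 2, and Elovl3 is highest in KO 3 and lowest in KO 2.

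Ratios within a library do not depend on how libraries are scaled. The ratio of Scd1 to Elovl6 was 29.0, 41.6 and 65.6 in the WT-labelled libraries and 49.2, 62.3 and 24.8 in the KO-labelled ones, so that a 29.9-fold range of Scd1 went with a 2.64-fold range of the ratio. The ratio of Fads1 to Fads2 was 0.564, 0.501 and 0.516 in the WT-labelled libraries and 0.494, 0.532 and 0.665 in the KO-labelled ones, with the highest ratio in KO replicate 3, where both genes were lowest. Elovl5 to Elovl2 ran from 0.449 in KO replicate 3 to 1.30 in WT replicate 2, and Elovl6 to Fasn, the fatty acid synthase that makes palmitate, from 0.116 in WT replicate 1 to 0.326 in WT replicate 2. Scd2 to Scd1 varied 31.7-fold, nearly all of it through Scd1. None of the 5 ratios separated the labels, with exact two-sided permutation p between 0.40 and 1.0.

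Genes with the most similar profile were found by the root mean square difference of log2(TPM + 1), centred on each gene's mean, over the 6 libraries, among 6600 other genes with a mean of at least 5 TPM. For Scd1 these were Ugt1a5 (0.54), Elovl6 (0.56), Thrsp (0.61) and Acacb (0.73), against a root mean square of 1.62 for Scd1 about its own mean. Ugt1a5 encodes a glucuronosyltransferase whose last exons are shared with the other Ugt1a genes, so its counts are uncertain, Thrsp is a lipogenic cofactor and Acacb an acetyl-CoA carboxylase. For Elovl6 they were Thrsp (0.38), Slc16a5 (0.39), Acot4 (0.40) and Acacb (0.47), against 1.24.

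The nearest genes of the polyunsaturated branch lay at smaller distances, but its members also varied less about their own means. For Fads1 they were Papss2 (0.12), Slco1a4 (0.14), Fads2 (0.15) and Asl (0.15), against 0.62 for Fads1 itself. For Fads2 they were Slco1a4 (0.14), Fads1 (0.15), Acaca (0.18) and Acly (0.20), against 0.72, the last 2 being the acetyl-CoA carboxylase and ATP citrate lyase of fatty acid synthesis. For Elovl5 they were Acaca (0.17), Gstt3 (0.18), Gpam (0.18) and H2-Q6 (0.18), against 0.65. For Scd2, whose low level compresses this scale, they were Ryk, Epas1, Snw1 and Akap8, each at 0.06 against 0.22.

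Several of the genes listed for the supply of substrate to these pathways shared the extremes of Scd1, but not all. All 9 genes listed for substrate supply were tested, and 8 of them had a difference below 0, beside 25.5% of all tested genes. None passed the threshold or had a p below 0.05 (limma). The median difference was -0.39 before and -0.50 after median-ratio scaling, beside +0.09 and -0.01 over all tested genes. The share of 25.5% is from before the scaling. In 8 of the 9 genes KO replicate 3 was the lowest library and in 6 WT replicate 2 was the highest, beside 20.3% and 10.6% of all tested genes. Thrsp was at 429, 1426 and 343 TPM in the WT-labelled libraries and at 526, 1002 and 94.8 TPM in the KO-labelled ones. Fasn spanned 12.1-fold and Acly, which makes cytosolic acetyl-CoA, 5.08-fold, whereas the citrate carrier gene Slc25a1 spanned 1.61-fold. Mlycd, the gene with a difference above 0 (+0.14), spanned 1.42-fold and was lowest in WT replicate 3.

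The partner enzymes of the elongation cycle spanned narrower ranges than Elovl6 and Elovl5. Of 7 listed genes 5 were tested, with 2 above and 3 below 0, a median of -0.0032, and none called or with a p below 0.05 (limma). The ketoacyl reductase gene Hsd17b12 was at 132, 116 and 115 TPM in the WT-labelled libraries and at 140.3, 112 and 104 TPM in the KO-labelled ones, a 1.34-fold range. The enoyl reductase gene Tecr spanned 1.6-fold and the dehydratase gene Hacd3 1.49-fold. Hacd1 and Hacd2, other dehydratase genes of the family, spanned 1.73-fold and 1.69-fold, no less than the 1.68-fold of Elovl2 and the 1.55-fold of Elovl1.

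Electron supply to the desaturases was covered by a further list. Of 6 listed genes 5 were tested, with 2 above and 3 below 0, a median of -0.0072, and none called or with a p below 0.05 (limma). Cyb5a, the cytochrome b5 that hands electrons to the desaturases, was at 1375, 1531 and 1042 TPM in the WT-labelled libraries and at 1475, 1414 and 1036 TPM in the KO-labelled ones. The cytochrome b5 reductase gene Cyb5r3 spanned 2.09-fold, with replicate 2 highest in both labels, and Cyb5b spanned 1.69-fold.

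Other desaturases and elongases did not all share the pattern. Of 9 listed genes 4 were tested, with 3 above 0 and a median of +0.05, and none called or with a p below 0.05 (limma). Elovl3, an elongase of saturated and monounsaturated chains, was at 98.5, 86.4 and 173 TPM in the WT-labelled libraries and at 56.9, 23.0 and 249 TPM in the KO-labelled ones. Its highest library was KO replicate 3, the lowest for Scd1, and its lowest was KO replicate 2. Degs1, the dihydroceramide desaturase, spanned 1.33-fold, and Fads6 spanned 1.82-fold. Fads3 was at 1.82, 4.17 and 2.53 TPM and at 3.24, 5.64 and 2.38 TPM, with replicate 2 highest in both labels, as in 7 of the 8 members, and its lowest library was WT replicate 1. Scd3 and Scd4 did not exceed 0.06 TPM in any library.

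Among 17 regulators all were tested, with 8 above and 9 below 0 and a median of -0.0047. None was called, and 2 had a p below 0.05 (limma), beside 3.15% of all tested genes. Those 2 were Insig1, which retains SREBP in the endoplasmic reticulum, and Nfyb, a subunit of the CCAAT-binding factor. Insig1 was at 120.2, 162 and 157 TPM in the WT-labelled libraries and at 108, 103 and 99.0 TPM in the KO-labelled ones, and Nfyb at 18.7, 19.7 and 20.2 and at 16.9, 15.9 and 14.7 TPM. Both were separated, as was Mbtps2, the site-2 protease of SREBP, at 3.88, 3.64 and 2.85 and at 2.78, 2.69 and 1.91 TPM, with the libraries labelled KO below. Nr1h2, which encodes LXRβ, was separated in the other direction, at 18.3, 16.2 and 13.4 and at 18.5, 18.98 and 19.1 TPM. Of all tested genes 8.23% were separated in that direction, and the labels of Nr1h2 overlapped after median-ratio scaling. Insig1, Nfyb and Mbtps2 were still separated after that scaling, beside 4% of all tested genes in their direction, against 0.857% before it.

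Srebf1, which encodes SREBP-1, did not follow Scd1 in every library. It was at 127, 86.6 and 64.6 TPM in the WT-labelled libraries and at 107, 139.9 and 32.3 TPM in the KO-labelled ones. KO replicate 3 was lowest for both genes, but WT replicate 2, the highest library for Scd1, was below KO replicates 1 and 2 and WT replicate 1 for Srebf1. Insig2, a second retention factor of SREBP, was at 149.9, 131 and 149.6 TPM and at 146, 54.8 and 192 TPM, lowest in KO replicate 2. Rxra, the partner of LXR and PPARα, spanned 1.24-fold, and Nr1h3, which encodes LXRα, 1.15-fold. Ppara was at 72.6, 57.4 and 47.9 TPM and at 70.3, 83.1 and 28.1 TPM.

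Downstream, all 14 genes for channelling polyunsaturated chains into phospholipids and for the peroxisomal step to docosahexaenoate were tested, with 10 above and 4 below 0, a median of +0.06, and none called or with a p below 0.05 (limma). Scp2, the peroxisomal thiolase and lipid carrier, spanned 1.28-fold, and Acsl1, an acyl-CoA synthetase, 1.68-fold. Median-ratio scaling brought the median of this list to -0.06.

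Markers of other liver cells were set beside Elovl1 and Scd2. Of 11 stellate cell markers 10 were tested, and before scaling all 10 were above 0, beside 74.5% of all tested genes. None was called, and 5 had a p below 0.05 (limma), beside 3.15% of all tested genes. Their median difference was +0.26 before and +0.17 after median-ratio scaling, beside +0.09 and -0.01 over all tested genes. Col1a2, Col3a1, Lum, Acta2 and Tagln were separated with the libraries labelled KO above, beside 8.23% of all tested genes, and Col1a2, Lum and Tagln still were after median-ratio scaling, beside 3.05%. The 11 markers summed to 123.8 to 146 TPM in the WT-labelled libraries and to 149.7 to 173 TPM in the KO-labelled ones. After median-ratio scaling these sums overlapped narrowly, at 141.71 to 146 and 141.65 to 164 TPM. Most of each sum was Dcn, at 100.5 to 106.9 and 97.6 to 114.6 TPM on that scale. The 12 macrophage and Kupffer cell markers summed to 271 to 393 and 352 to 374 TPM, the 10 endothelial markers to 138 to 153 and 138 to 172 TPM, and the 7 cholangiocyte markers to 29.1 to 40.2 and 38.8 to 62.4 TPM, each overlapping. Of the 10 endothelial markers, all tested, Lyve1 alone was separated, with the libraries labelled KO above. This held before and after the scaling, beside 8.23% and 3.05% of all tested genes. Lyve1 was at 5.50, 4.95 and 4.07 TPM and at 7.02, 6.56 and 6.07 TPM (limma unadjusted p = 0.031, adjusted p = 0.993). After the scaling the cholangiocyte sums were separated, at 33.3 to 39.1 and 39.5 to 57.0 TPM. Most of each sum was Spp1, which overlapped, at 25.3 to 32.30 and 32.26 to 48.3 TPM on that scale. Before the scaling Spp1 overlapped too (limma unadjusted p = 0.035, adjusted p = 0.993). Of the 7 cholangiocyte markers 5 had a mean below 1 TPM, and no tested one was separated. The 5 nerve and glia markers summed to at most 0.965 TPM in the WT-labelled libraries and to 1.16 to 3.16 TPM in the KO-labelled ones, a separation that held after the scaling. The 10 lymphocyte and neutrophil markers summed to 2.54 to 10.5 and 6.56 to 7.64 TPM. The 8 adipocyte markers, of which 4 were at 0 throughout, summed to 16.4 to 24.4 and 19.5 to 31.7 TPM. Of these, Fabp4 was separated with the libraries labelled KO above, beside 8.23% of all tested genes, but its labels overlapped after the scaling. The 7 pancreas and muscle markers, of which 6 were at 0 throughout, summed to 0.446 to 1.76 TPM in the WT-labelled libraries. In the KO-labelled ones they summed to 0 to 0.048 TPM. Both sums were Acta1 alone, and the separation held after the scaling. The part of any of these cell types in the levels of Elovl1 and Scd2 was not tested.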

How the data were processed

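Liver RNA-seq of 6 libraries was analysed, 3 labelled WT and 3 labelled KO. Per the labels' protocols, TRIzol was used for total RNA and an NEB kit for the libraries. The authors deposited TPM per gene and library, to 3 decimals. The build was mm10 and the tools included featureCounts, HISAT2, fastp, limma and DESeq2, per the submitters' processing notes, which state neither versions nor roles. TPM keeps no depth, so no count model or counting interval was used, and the number of libraries limits precision. Of 54323 Ensembl identifiers, 51492 matched a symbol, and the identifier with the highest mean TPM was used for each symbol.

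Genes that reached 1 TPM in 3 or more libraries were tested on log2(TPM + 1) with limma 3.58.1 in R 4.3.3, with a variance trend, two-sided. Data were simulated with 200 of 11440 genes changed, all drawn from genes with a mean of at least 5 TPM. On them the limma step found 18% of 50 genes altered 1.5-fold and 64% of 50 altered 2-fold. It found 76% of 50 altered 3-fold and 94% of 50 altered 4-fold, and it called 8 of 11240 genes that had not been altered. These shares were not split by level or by spread, so they give no recovery for any single member. Scd1 and Elovl6 had within-label standard deviations of 1.93 and 1.46, beside a median of 0.21. Scd2, with a mean of 1.36 TPM, lay below the level from which the altered genes were drawn.

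Deviations of same-numbered libraries from their label means correlated at 0.16, 0.41 and 0.38 across genes, so the numbers were treated as a possible pairing. It comes from the data, not the labels, and the replicate block was an alternative. Other alternatives were 2 pseudocounts, 2 filters, 3 scalings, 2 variance models and leaving out libraries. Members, lists and tests were chosen with earlier results of these data known. Named are the 8 members, Epas1, the genes of the pathway lists (not the cell markers) that were separated between labels or abundant in their list, and for members varying at least 2-fold the 4 genes with the nearest profile. Srebf1, Ppara, Nr1h3, Fads3, Hacd1, Hacd2, Scd3, Scd4, Mlycd, the separated stellate cell markers and Gm13597 were named after their values were seen. So were the markers Dcn, Lyve1, Spp1, Acta1, Fabp4, Lipe and Cidec. A gene that this rule names is not reported here.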

Additional observations from a re-analysis of the deposited data

How the results depend on the processing

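No member passed the threshold under any of 159 alternatives (smallest adjusted p 0.724, with the replicate block). The block changed no call of a member. The number of genes called in the table was 1, and 0 with a pseudocount of 5, no filter, a filter of 5 TPM, quantile normalization, the replicate block, the block with median-ratio scaling, or without both libraries numbered 1 or 3. It was 2 without both libraries numbered 2, and 0 to 2 without 1 library, and the cause was not tested.

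Elovl1 and Scd2 kept their direction under all their alternatives, with differences of +0.23 to +0.41 and +0.13 to +0.58. Without 1 library at a time, the difference ran from -1.69 to +0.40 for Scd1, -0.57 to +0.26 for Fads1, -0.69 to +0.24 for Fads2, -0.55 to +0.16 for Elovl5, -1.33 to +0.17 for Elovl6 and -0.14 to +0.21 for Elovl2. Without both libraries numbered 3 it was +0.31 for Scd1, +0.060 for Fads1 and +0.11 for Fads2, but -0.062 for Elovl5 and -0.37 for Elovl6. For Elovl2 it was -0.075 with median-ratio scaling, with or without the block, -0.041 with quantile normalization, -0.018 without the 20 most abundant and mitochondrial genes, and -0.068 without both libraries numbered 1. The log2 ratio difference ran from -0.30 to +0.37 for Scd1 to Elovl6, -0.038 to +0.18 for Fads1 to Fads2, and -0.17 to +0.57 for Elovl6 to Fasn without 1 library. A filter of 5 TPM gave no value for Scd2. The depth behind each TPM is unknown.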
